A study of Mus musculus with 20 samples.

Results

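Somatostatin (Sst) interneurons of the mouse hippocampus were taken here as the nuclei with at least 2 UMIs (unique molecular identifiers, 1 per captured RNA molecule) of the GABA-synthesizing enzymes Gad1 and Gad2 together, at least 2 UMIs of Sst and at least 1 UMI of Lhx6 and Nxph1 together. In addition Vip had to be 0, Lamp5 at most 1, and the sum of the glial genes Mog, Pdgfra, Csf1r and Aqp4 had to be 0. These conditions selected 281 of 160777 nuclei from 20 mice (0.175%), which was 7.65% of the 3672 GABAergic nuclei (the same conditions on Gad1 and Gad2 and on the glial genes alone). The mice were males aged 4.5 to 5.5 months, either wild-type (WT) or APP/PS1 littermates carrying APPSwe and PS1ΔE9 transgenes, a model of familial Alzheimer's disease (fAD), and 1 hippocampal library was made per mouse. By the sample labels 9 mice stayed awake (6 WT-Awake, 3 fAD-Awake) and 7 were under isoflurane for 3 h at a final 1.5% (3 WT-GA, 4 fAD-GA). The other 2 mice of each genotype received 150 mg/kg ketamine with 12 mg/kg xylazine, also with 3 h of anesthesia (WT-KETA, fAD-KETA). The design text of the series gives other group sizes, and the labels of the single samples were followed. The promoter of the transgenes is not given in the sources used here. The awake mice held 91 (WT-Awake) and 51 (fAD-Awake) of the Sst nuclei, the isoflurane mice 66 (WT-GA) and 59 (fAD-GA) and the ketamine mice 4 (WT-KETA) and 10 (fAD-KETA).

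Sst interneurons arise in the medial ganglionic eminence, where the transcription factor Lhx6, followed by Sox6 and Satb1, directs their maturation. In the hippocampus the group includes the oriens lacunosum-moleculare cells, which inhibit the distal dendrites of pyramidal neurons, and cells that project over long distances. Somatostatin itself is a peptide that is released with GABA and acts on inhibitory G-protein-coupled receptors. Its gene is a classical target of cAMP signalling: the transcription factor CREB binds a palindrome shortly upstream of the start site, a sequence through which activity reaches many other neuronal genes.

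The palindrome of the Sst promoter is shown because the product of this gene sets the main condition of the selection. Sst lies on the minus strand of chromosome 16 at 23889573 to 23891342 (GRCm38.p6, the patch release of mm10, gene span of RefSeq). The RefSeq promoter table used here places the start site at 23890844, inside that span, so another annotated form of the gene begins further upstream. The 30 bases printed are chr16:23890874-23890903, read 5′ to 3′ on the minus strand, and the capitals mark the palindrome TGACGTCA.
Sst promoter: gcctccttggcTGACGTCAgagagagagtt
The palindrome reads the same on both strands and ends 41 bases before the start site of that table. Within 250 bases upstream of such a start site it was present in 508 of 32851 mouse promoters of the same table (1.55%). Among the genes of the lists used here with a promoter in that table it stood in 4 of 18 activity effector genes (Dusp1, Pcsk1, Plk2 and Scg2), in 1 of 16 immediate early transcription factors (Maff), in 0 of 20 peptide and subtype genes and in 1 of 11 of the genes that exceeded other GABAergic nuclei most (Daam2). A match of letters is a description of the sequence and not a measurement of binding.

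The Sst nuclei were spread very unevenly over the mice. The mice that the labels number 1 to 4, which come from 4 different groups, held 186 of the 281 nuclei (66.2%). Mouse 1 (WT-Awake) had 58, mouse 2 (fAD-Awake) 36, mouse 3 (WT-GA) 41 and mouse 4 (fAD-GA) 51. Among the other 16 mice the number ran from 0 to 19 with a median of 4: mouse 13 (WT-Awake) had 19, mouse 16 (WT-GA) 17 and mouse 17 (fAD-Awake) 11, and no other mouse reached 10. Sst nuclei were thus 15.5% to 20.6% of the GABAergic nuclei in mice 1 to 4 and 0% to 9.09% in the others, with no overlap between the 2 sets. Their own depth, which the minimum counts of the selection truncate, differed little, with a median of 4668 UMIs per Sst nucleus in mice 1 to 4 and 4355 in the others. Over all nuclei the median per mouse was 1718 to 3169 UMIs in mice 1 to 4 and 1235 to 1840 UMIs in the others.

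**Figure D1:**
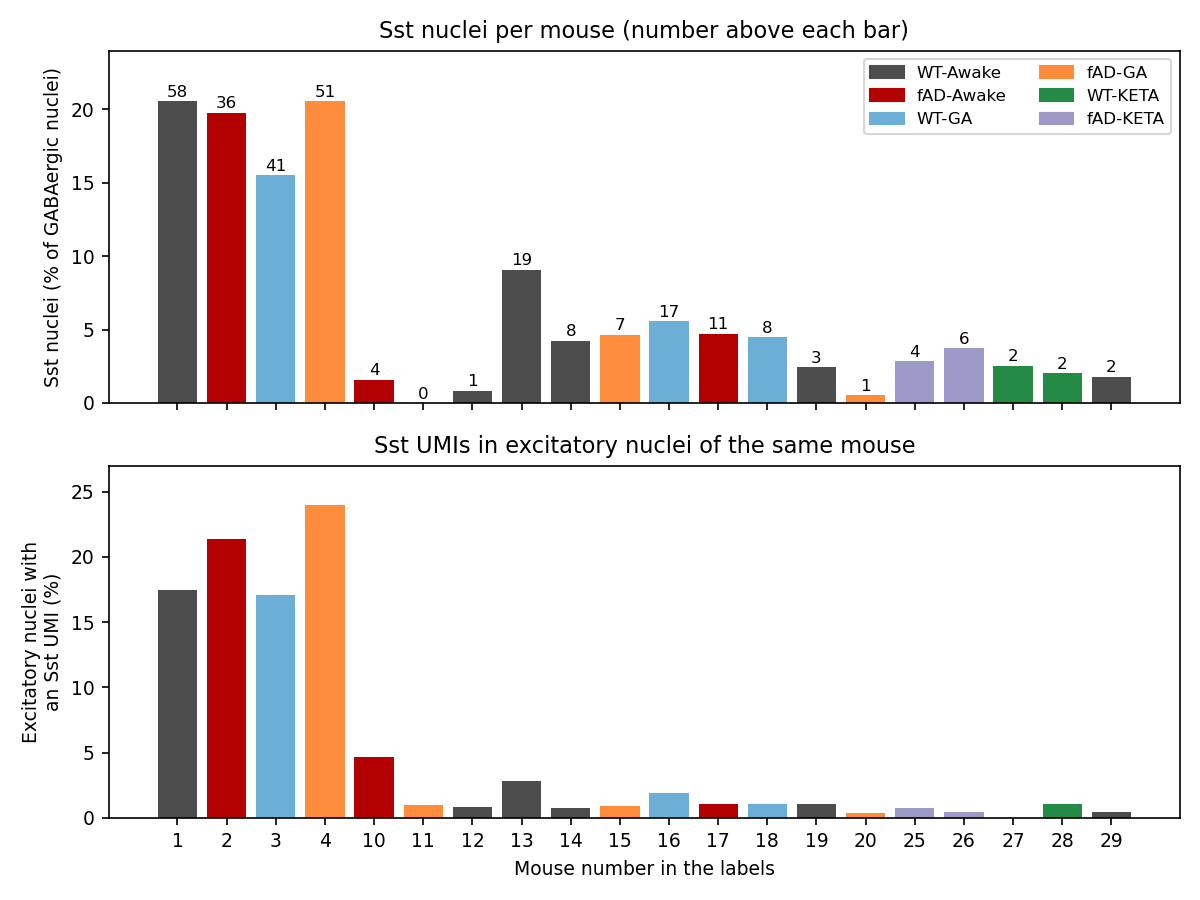
Sst nuclei as a percentage of GABAergic nuclei (top, with their number above each bar) and the percentage of excitatory nuclei that hold at least 1 Sst UMI (bottom), for each of the 20 mice and coloured by labelled group. Mice 1 to 4 stand above all other mice in both panels, at 15.5% to 20.6% and at 17.1% to 23.98%.

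Sst UMIs were also more frequent in other nuclei of mice 1 to 4. Excitatory nuclei (2 or more UMIs of Slc17a7, none of Gad1, Gad2 or the 4 glial genes), which should lack Sst, held at least 1 Sst UMI in 17.1% to 23.98% of cases in mice 1 to 4 and in 0% to 4.69% in the others. The limit of 2 Sst UMIs was reached by 2.09% to 4.63% of the excitatory nuclei in mice 1 to 4 and by 0% to 0.565% in the others. Mitochondrial UMIs made up 0.939% to 1.78% of the libraries of mice 1 to 4 and 0.0353% to 0.336% of the others. The part of Sst RNA from outside the nucleus in the larger number of Sst nuclei of mice 1 to 4 was not tested. Nuclei that met every condition but the one on Sst held 2 or more Sst UMIs in 25.2% to 36.7% of cases in mice 1 to 4 and in 0% to 11.8% in the others. Libraries ranged from 4743 to 10877 nuclei and from 9.24e+06 to 2.54e+07 UMIs. A doublet caller marked 16 of the 281 nuclei. It was set to mark a share of each library that depends on its size, which came to 3.94% to 9.48% of all nuclei. Of the 157472 distinct barcodes 2.06% occurred in 2 or more libraries.

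The markers behind the label were present to different degrees. The median Sst nucleus held 4 Sst UMIs, 73 nuclei held exactly 2, 154 held 4 or more, and the highest count was 44. Nxph1, a secreted ligand of neurexins, had a UMI in all 281 nuclei, so it carried the condition that it shares with Lhx6, whose transcript was seen in 41 nuclei only. Lhx6 had a UMI in 16.7% of the Sst nuclei of mice 1 to 4 (95% exact binomial interval 11.6 to 22.8) against 0.205% of the excitatory nuclei, and in 10.5% (5.16 to 18.5) against 0.0822% in the other mice. Such intervals cover counting error only. Gad2 was at 404 CPM (UMIs per 1000000 UMIs of the same nuclei, mean of the 7 mice with at least 10 Sst nuclei) in the Sst nuclei and 398 in the other GABAergic nuclei, which are those without any Sst UMI. Gad1 was lower in the Sst nuclei of each of the 7 mice, at 242 against 426 CPM. Both classes were selected by at least 2 UMIs of Gad1 and Gad2 together. These levels are thus truncated and depend on the depth of the nuclei.

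Whether the nuclei near the limit of 2 Sst UMIs resembled those far above it was examined over the 2458 nuclei that met every other condition. The nuclei just outside the limit were the 107 with 1 Sst UMI in mice 1 to 4 and the 129 in the others. Those just inside were the 58 and 69 with 2 or 3 Sst UMIs, and 128 and 26 held 4 or more. Elfn1, a synaptic adhesion protein that gives excitatory inputs onto these cells their facilitating release, was higher at each step of the Sst count: in mice 1 to 4 it was 18.9 CPM at 0 Sst UMIs, 51.5 at 1, 83.8 at 2 or 3 and 154 at 4 or more. In the other mice the same steps were 29.0, 117, 129 and 237 CPM. Grin3a, a glutamate receptor subunit typical of Sst cells, went from 100 to 137, 352 and 558 CPM in mice 1 to 4 and from 151 to 386, 498 and 712 CPM in the others. Erbb4, a neuregulin receptor of many other interneurons, ran the opposite way, from 7420 to 5736, 2780 and 1273 CPM in mice 1 to 4 and from 6424 to 1741, 1261 and 863 CPM in the others. For Grin3a and Erbb4 the nuclei with 1 Sst UMI thus lay nearer to those with 2 or 3 in the other 16 mice and nearer to the nuclei without Sst in mice 1 to 4. Not every gene rose at each step. In mice 1 to 4 Sox6 was at 181 CPM both at 0 and at 2 or 3 Sst UMIs, and at 306 CPM at 4 or more. Reln was at 322, 329 and 518 CPM at these counts and Npy at 141, 154 and 316 CPM. In the other mice all of these were higher at 2 or 3 than at 0, with Sox6 at 318 against 183 CPM. Satb1 there was at 245 CPM at 2 or 3 and 216 CPM at 4 or more. Median depth rose only from 3819 to 4873 UMIs and from 3283 to 4986 UMIs over the same steps.

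**Figure D2:**
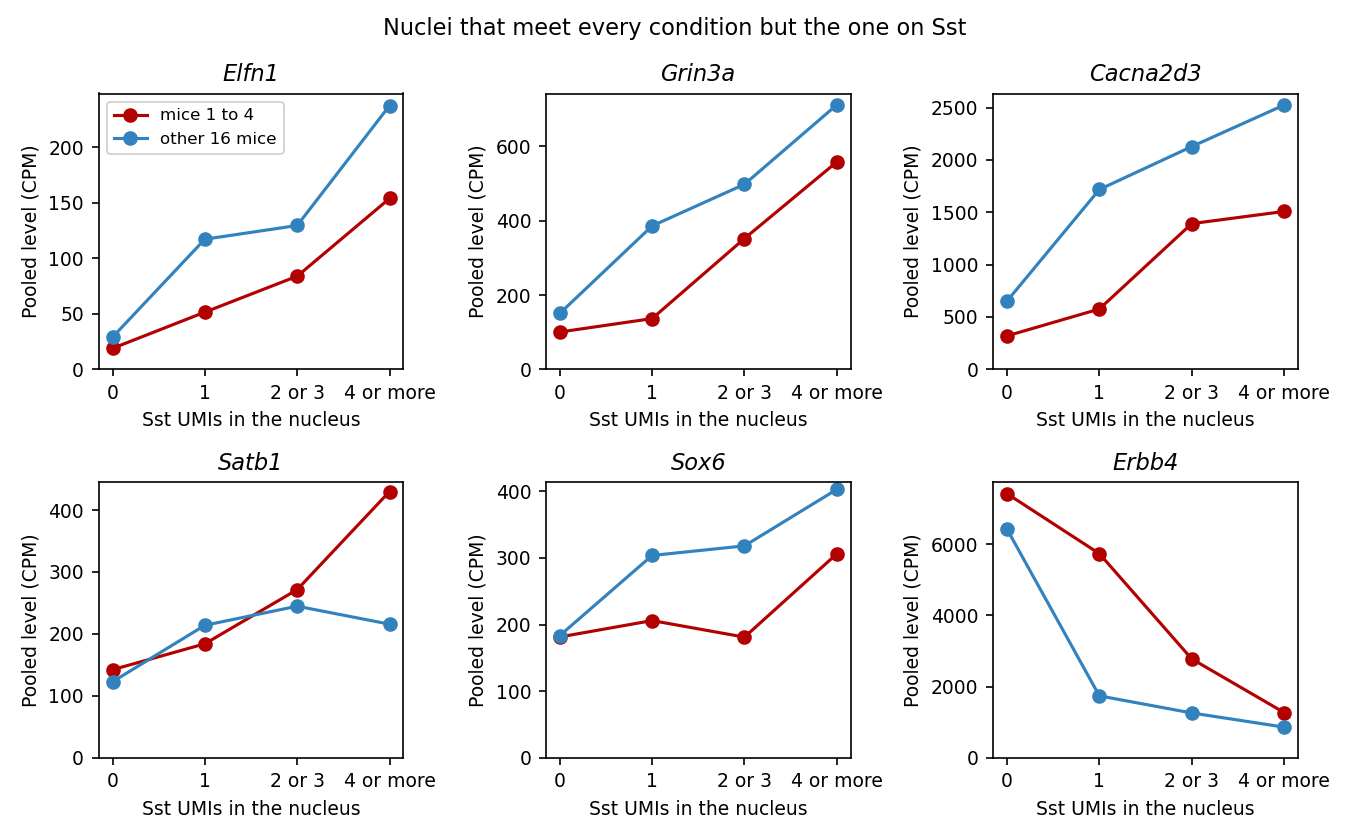
Pooled level in CPM of 6 genes (1 panel each) against the number of Sst UMIs in the nucleus, for nuclei that meet every condition but the one on Sst, with mice 1 to 4 in red and the other 16 mice in blue. Elfn1, Grin3a and Cacna2d3 climb with the Sst count in both sets and Erbb4 falls, and Erbb4 is already low at 1 Sst UMI in the other mice, at 1741 CPM against 5736 CPM in mice 1 to 4.

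Markers of other cells were not absent, and those of excitatory neurons were not low as a list. Slc17a7, the vesicular glutamate transporter of excitatory neurons, had a UMI in 26 of the 281 nuclei, and 255 had none of Slc17a7 and Slc17a6. The summed level of 8 excitatory markers was 831 to 1130 CPM across the 7 mice. Pooled over all mice it was 954 CPM in the Sst nuclei, 1023 CPM in the other GABAergic nuclei and 1990 CPM in the excitatory nuclei. Of these 8 markers 1 was higher and 1 lower in all 7 mice than in the other GABAergic nuclei. The summed level of 5 astrocyte markers was 60.6 to 542 CPM across the 7 mice, that of 6 oligodendrocyte markers 48.4 to 432 CPM and that of 5 microglial markers 62.5 to 163 CPM. Vascular markers reached 0 to 11.9 CPM, and the defining endothelial gene Flt1 was at 0 in all 281 nuclei. The 12 markers of other interneuron classes summed to 411 CPM in the Sst nuclei against 3935 CPM in the other GABAergic nuclei, mostly through Adarb2, a marker of interneurons from the caudal ganglionic eminence. Adarb2 was at 101 CPM in the Sst nuclei and 3304 CPM in the others, as means of the 7 mice. The other GABAergic nuclei need not meet the conditions on Vip, Lamp5, Lhx6 and Nxph1, so lower levels of such markers are in part set by the selection. Nuclei without Sst that met the other conditions held Adarb2 at 1440 CPM in mice 1 to 4 and 1593 CPM in the others. Pooled over all mice it was at 111 CPM in the Sst nuclei and 58.4 CPM in 24 nuclei selected by Pvalb in place of Sst.

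The identity of the Sst nuclei beyond the selection genes was described in the 7 mice with at least 10 of them, by setting the Sst nuclei of each mouse against its other GABAergic nuclei on the scale log2(CPM + 1). Since the nuclei were chosen by their RNA counts, these differences are given without a test. The other GABAergic nuclei were not held to the conditions on Lhx6, Nxph1, Vip and Lamp5, so the classes differ in more than Sst. Of 7462 genes with a mean of at least 20 CPM in the Sst nuclei, 262 (3.51%) were higher in each of the 7 mice, 361 (4.84%) were lower in each, and the median difference was −0.11. A filter on the level in the Sst nuclei alone favours genes that are high there. Over the 7576 genes with at least 20 CPM as a mean of both classes, 256 (3.38%) were higher in each mouse and 455 (6.01%) lower, with a median of −0.15. Of the 20 genes named next, 18 also passed that filter, which Layn and Prkcq did not. On the higher side the largest mean difference was that of Lama4, a laminin chain, at 3.99 ± 1.40 (SD, n = 7), followed by the transcription factor Klf5 at 3.06 ± 0.42 and Elfn1 at 2.89 ± 0.82. Others among the 20 largest on that side were Crhbp, which binds corticotropin-releasing hormone (2.56 ± 0.75), Lypd6b, a modulator of nicotinic receptors (2.55 ± 0.45), the retinol-binding protein Rbp4 (2.50 ± 0.45), Grin3a (2.35 ± 0.49), the cation channel Trpc6 (2.04 ± 0.46) and the transcription factors Eya1 (2.13 ± 0.57) and Ets1 (2.01 ± 1.30). Of the 20 genes, 16 were higher in every mouse, and Layn, Prkcq and Sema3a were among those higher in 6.

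**Figure D3:**
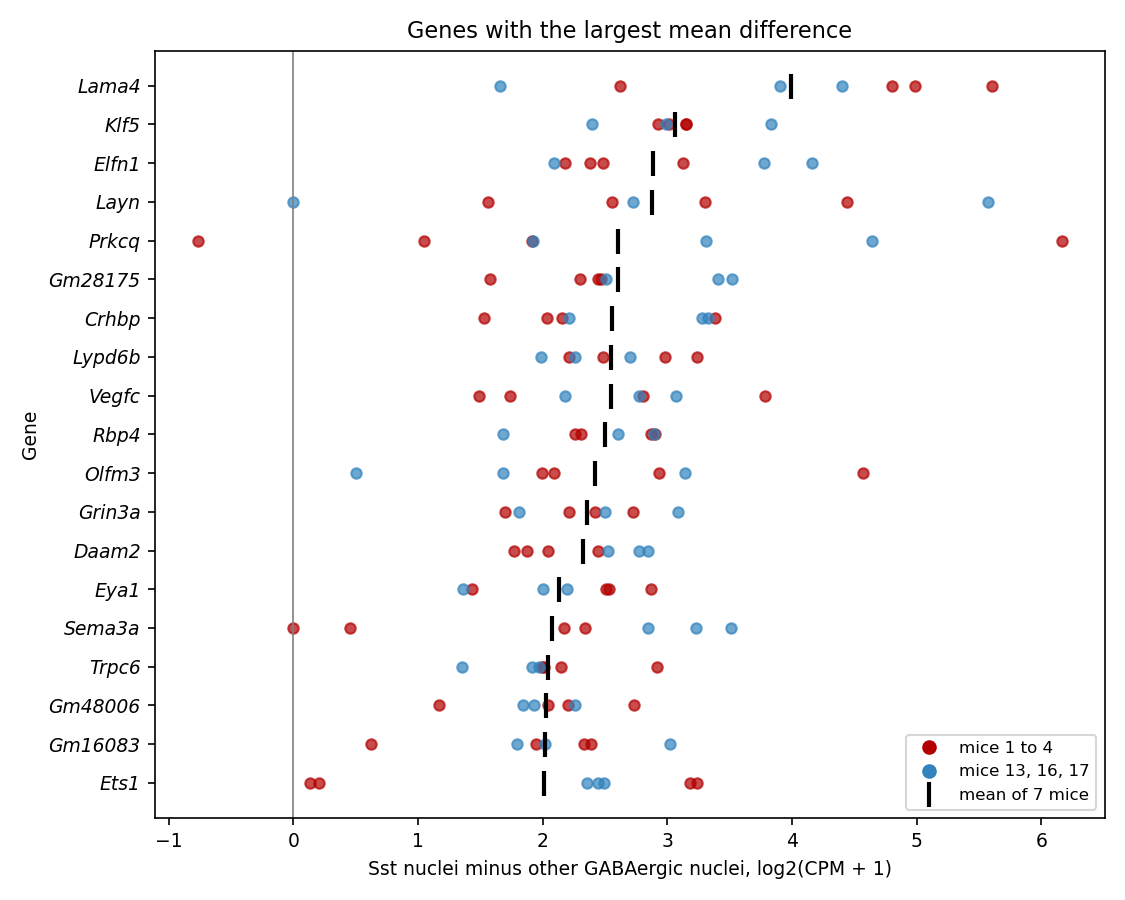
Difference between Sst nuclei and other GABAergic nuclei of the same mouse, on the log2(CPM + 1) scale, for 19 of the 20 genes with the largest mean difference on the higher side, where each point is 1 of 7 mice (mice 1 to 4 red, mice 13, 16 and 17 blue) and the black bar is the mean. Klf5, Elfn1 and Crhbp lie above 1 in each mouse, while Prkcq scatters on both sides of 0.

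The leading genes were high in both sets of mice. Elfn1 was at 134, 166, 107 and 115 CPM in the Sst nuclei of mice 1, 2, 3 and 4, and at 139, 254 and 250 CPM in mice 13, 16 and 17. In the other GABAergic nuclei of the same mice it lay between 13.1 and 31.9 CPM, below every value of the Sst nuclei. Grin3a was at 487, 577, 351 and 521 CPM in mice 1 to 4 and at 917, 484 and 583 CPM in mice 13, 16 and 17, against 64.6 to 149 CPM in the other GABAergic nuclei. Satb1, a transcription factor required for the maturation of Sst cells, was at 396, 386, 315 and 402 CPM in mice 1 to 4 and 337, 206 and 146 CPM in mice 13, 16 and 17, against 62.8 to 129 CPM. For each of these genes the values per mouse of the Sst nuclei and of the other GABAergic nuclei did not overlap. This describes sums per mouse and not single nuclei, and Elfn1 and Grin3a had been picked by this difference in the same mice.

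Of 18 transcription factors of interneurons, 5 were higher in all 7 mice and 1 was lower. Of the 12 with at least 20 CPM as a mean of both classes the counts were also 5 and 1, and over all genes of that level 3.38% were higher and 6.01% lower. Among those higher were Satb1 (1.68 ± 0.32), Sox6 (1.33 ± 0.46), Elavl2, an RNA-binding protein kept in this list (0.70 ± 0.33), and Maf (0.58 ± 0.28). Pooled over all mice, Sox6 was at 293 CPM in the Sst nuclei, 337 CPM in the 24 nuclei selected by Pvalb in place of Sst and 42.1 CPM in the 107 nuclei selected by Vip, a class from the caudal eminence. Satb1 was at 332, 357 and 39.6 CPM in the same classes. Prox1, a factor of the caudal class that the conditions on Vip and Lamp5 disfavour, was lower (−3.84 ± 2.12). Lhx6 differed by −0.09 ± 1.91, with 0 CPM in mouse 13 and 20.1 to 49.8 CPM in the other 6 mice.

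Peptides and genes that divide Sst cells into subtypes were examined as a list of 28, of which 8 were higher in all 7 mice and 2 lower, with a median difference of 0.57. Over the 16 of them with at least 20 CPM as a mean of both classes, 8 were higher and 0 lower and the median was 1.01, against −0.15 over all genes of that level. List counts given elsewhere include genes below that level unless they say otherwise. The glycoprotein Reln, which marks oriens lacunosum-moleculare cells, had a UMI in 112 of 186 Sst nuclei of mice 1 to 4 (60.2%) and in 64 of 95 of the other mice (67.4%). In the other GABAergic nuclei the shares were 30.1% and 31.1%, and in excitatory nuclei 2.81% and 1.91%, at median depths of 3783, 3157, 4611 and 3671 UMIs. Neuropeptide Y (Npy) was detected in 37.1% and 31.6% of the Sst nuclei, against 22.3% and 5.81% of the other GABAergic and 6.43% and 0.576% of the excitatory nuclei. Npy UMIs were thus also more frequent in excitatory nuclei of mice 1 to 4. Elfn1 was found in 40.3% and 40.0% and Crhbp in 32.3% and 29.5% of the Sst nuclei, each above both comparison classes.

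Several classical subtype genes were rare. Chodl, which with Nos1 marks long-range projecting Sst cells, was found in 1 nucleus with 3 UMIs, and that nucleus also held Npy, Nos1 and Crhbp. Nos1, the neuronal nitric oxide synthase, was found in 4.84% and 7.37% of the Sst nuclei, below the 16.7% and 11.2% of the other GABAergic nuclei. Chrna2, a nicotinic receptor subunit of oriens lacunosum-moleculare cells, was found in 2 nuclei, and Myh8 in 0 of 281, which allows a share of nuclei with a UMI of up to 1.07% and sets no limit on nuclei that express the gene. Cortistatin (Cort), a peptide related to somatostatin, was found in 29 nuclei of mice 1 to 4 (15.6%) and in 1 nucleus of the other 16 mice (1.05%). In the same sets the excitatory share of Cort was 1.33% and 0.0548%. Pvalb was found in 13 of the 281 nuclei.

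**Figure D4:**
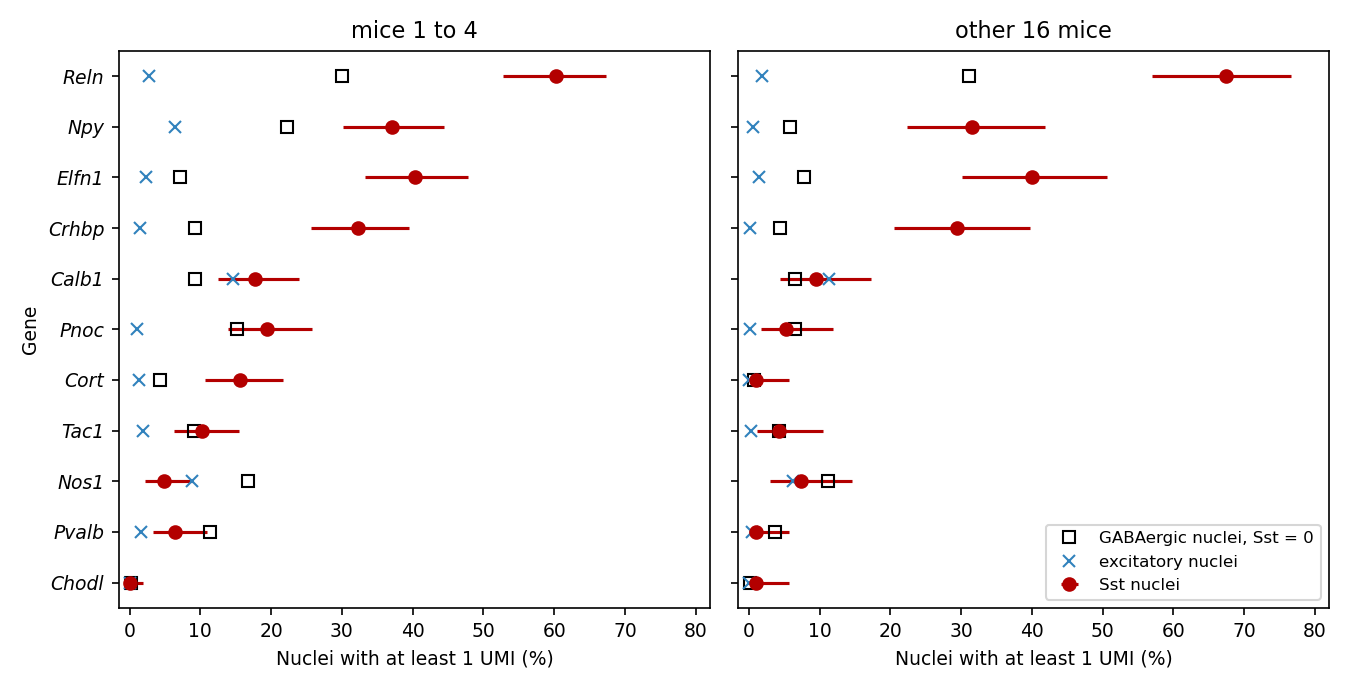
Percentage of nuclei with at least 1 UMI of 11 subtype genes in mice 1 to 4 (left) and in the other 16 mice (right), for Sst nuclei (red points with 95% exact binomial intervals), GABAergic nuclei without Sst (open squares) and excitatory nuclei (crosses). Reln, Npy, Elfn1 and Crhbp lie above both other classes in both sets, whereas Cort does so in mice 1 to 4 only and Chodl is near 0.

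Some of these genes were seen in the same nuclei. Reln was found in 63 of the 99 nuclei with Npy, beside 62.6% of all Sst nuclei, and in 88 of the 113 with Elfn1. Npy was found in 47 of the Elfn1 nuclei, beside 35.2% of all. Cort was found with Npy in 17 of its 30 nuclei, with Crhbp in 18 (31.3% of all held Crhbp) and with Reln in 13. Detection of each gene depends on the depth of the nucleus, so these counts are a description and no test of association was made.

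Many GABA-A receptor subunits were lower in the Sst nuclei and some glutamate receptor genes were higher. Of the 12 subunits of the GABA-A receptor, a target of isoflurane, 8 were lower in the Sst nuclei than in the other GABAergic nuclei in each of the 7 mice and 1 was higher, with a median of −0.82. All 12 had at least 20 CPM as a mean of both classes, and over all genes of that level 6.01% were lower and 3.38% higher. Gabrd (−2.90 ± 1.42), Gabra5 (−2.02 ± 1.88), Gabrg3 (−1.89 ± 1.03) and Gabra4 (−1.26 ± 0.76) were lower. Gabra3 was higher, at 1.34 ± 0.25, with 83.4 to 194 CPM in the Sst nuclei and 33.0 to 79.5 CPM in the other GABAergic nuclei. Of 24 glutamate receptor genes, 8 were higher in all mice and 2 lower (median 0.22). Among them the kainate receptor Grik3 (1.72 ± 0.13), the AMPA subunits Gria3 (0.94 ± 0.29) and Gria1 (0.68 ± 0.41), Grm7 (0.79 ± 0.27), Grik1 (0.74 ± 0.37) and Grin3a were higher, and Grin2a (−0.48 ± 0.21) and Grin2b (−0.20 ± 0.09), the usual NMDA receptor subunits, were lower.

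Channel genes differed in both directions. Of 25 potassium, HCN and K2P channel genes, 8 were lower in all 7 mice and 1 higher (median −0.35). Over the 21 of at least 20 CPM as a mean of both classes 7 were lower and the median was −0.19, against −0.15 and 6.01% lower over all genes of that level. The small-conductance channels Kcnn2 (−1.81 ± 0.63) and Kcnn3 (−2.22 ± 1.44), the M-type channel Kcnq5 (−1.65 ± 0.34) and Kcnh7 (−1.40 ± 0.55) were lower, whereas Kcnc2, a Kv3 channel of fast-firing cells, was higher (0.79 ± 0.26). Among 15 sodium and calcium channel genes the auxiliary calcium channel subunits differed in opposite directions: Cacna2d3 was higher (1.86 ± 0.43), at 1248 to 2822 CPM against 386 to 564 CPM, and Cacna2d1 was lower (−3.33 ± 0.91). The vesicular GABA transporter Slc32a1 differed by 0.09 ± 0.52. Of 12 markers of other interneurons 7 were lower in all mice, and of the 7 that reached that level 4 were lower, against 6.01% of all such genes. The conditions on Vip, Lamp5, Lhx6 and Nxph1, which the comparison class need not meet, set part of this in advance. Among those lower were the cannabinoid receptor Cnr1 (−2.52 ± 1.89) and cholecystokinin, Cck (−2.29 ± 1.84). Of 26 activity effector genes 1 was higher in all 7 mice, the secretory peptide precursor Vgf (1.35 ± 0.63), and 3 were lower, among them Inhba (−2.62 ± 1.50) and Bdnf (−3.46 ± 1.24), which was at 1.07 CPM. The median over all 26 genes was −0.96. Over the 11 of at least 20 CPM as a mean of both classes 1 was higher and 0 lower, and the median was −0.35, against −0.15 over all genes of that level. Of the 20 immediate early transcription factors 0 were higher in all mice and 1 was lower (median −0.58), and over the 3 that reached that level the median was 0.12 with 0 lower. Their summed level was 166 CPM in the Sst nuclei and 152 CPM in the other GABAergic nuclei.

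The genotype labels were checked with Prnp, since the transgenes of this line carry sequence of the mouse prion gene. In the nuclei selected without the Sst condition Prnp ran from 27.3 to 340 CPM in the 9 mice labelled fAD and from 15.6 to 104 CPM in the 11 mice labelled WT. The ranges overlapped: mice 17, 11 and 20, labelled fAD, had 27.3, 35.7 and 55.8 CPM, and mice 3, 1 and 14, labelled WT, had 104, 97.8 and 76.6 CPM. In the Sst nuclei it was at 457 CPM in mouse 2, 333 in mouse 4 and 41.7 in mouse 17, labelled fAD, and at 128, 101, 23.2 and 60.6 CPM in mice 1, 3, 13 and 16, labelled WT. In the wider selection and over all mice, 5 of the 9 mice labelled fAD lay within the range of the mice labelled WT. Within mice 1 to 4 the labels separated, at 340 and 234 CPM (fAD) against 97.8 and 104 CPM (WT). Among the other 16 mice the highest WT value was 76.6 CPM. Mice 11, 17 and 20, labelled fAD, lay below it. Mice 25, 26, 10 and 15, also labelled fAD, lay above it, at 83.4, 84.0, 128 and 294 CPM. Prnp thus did not separate the labels in every mouse, and every genotype comparison refers to mice as labelled.

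Whether isoflurane changed the number of Sst nuclei or the Sst level was asked over all awake and isoflurane mice. Sst nuclei made up 7.33% ± 7.76 (SD, n = 7) of the GABAergic nuclei in isoflurane mice, from 0% to 20.6% with a median of 4.64%. In awake mice they made up 7.22% ± 7.74 (SD, n = 9), from 0.833% to 20.6% with a median of 4.23%. The groups overlapped almost completely, and the difference of 0.106 percentage points had a 2-sided exact permutation p = 0.994. Within mice 1 to 4 the shares were 18.0% under isoflurane and 20.2% awake (2 mice each, exact permutation p = 0.667, where the smallest p that 2 against 2 allows is 0.333), and without mice 1 to 4 the difference was −0.482 points (exact permutation p = 0.790). A lower number of cells and less RNA per cell cannot be told apart in such shares. The 4 ketamine mice, none of them among mice 1 to 4, had 2.02% to 3.73%, all below the median of the isoflurane mice. Without mice 1 to 4 the isoflurane mice ran from 0% to 5.57% and the awake mice from 0.833% to 9.09% with a median of 2.42%. The ketamine values lay within both of these ranges.

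Because the selection truncates Sst itself, its level was compared in the nuclei chosen without the Sst condition. There Sst was at 327 to 644 CPM in mice 1 to 4 and at 9.72 to 241 CPM in the others, with mouse 15 (fAD-GA) highest among the latter. The difference between isoflurane and awake mice was −0.01 ± 0.70 (log2 ± SE) (adjusted p = 1.00). This p and all later adjusted ones come from the quasi-likelihood test of edgeR. Without mouse 3 it was −0.86 and without mouse 2 it was 1.21, so that the value rests on single mice of the first 4. Under ketamine it was −2.13 ± 1.05 against awake (adjusted p = 0.321). No ketamine mouse is among mice 1 to 4, whereas awake mice 1 and 2 were at 611 and 644 CPM. The ketamine mice were at 27.0 to 52.1 CPM, within the 19.9 to 116 CPM of the other awake mice.

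Gene by gene, the Sst nuclei were summed per mouse, and the 7 mice with at least 10 nuclei entered the test: mice 1 and 13 of WT-Awake, 2 and 17 of fAD-Awake, 3 and 16 of WT-GA and 4 of fAD-GA. No ketamine mouse did. The contrast of isoflurane and awake averages group means, so mouse 4 alone stands for fAD-GA and weighs as much as mice 3 and 16 together. CPM from here on, unless given as CPM of all genes, is scaled to the tested genes with TMM factors. No gene of 5756 passed an adjusted p of 0.05 between isoflurane and awake (0%). By unadjusted p under 0.05 there were 169 genes by edgeR, and DESeq2 called 0 with 40 unadjusted. With mice 1 to 4 against the others as a block, 18 genes passed (0.313%), 17 of them lower (0.295%), on 2 residual degrees of freedom. Their per-mouse values follow as a description, together with the unblocked estimate.

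Alkal2, a ligand of the receptor tyrosine kinase ALK (chromosome 12, 30884324 to 30893856), had the smallest p in both fits. It was at 255, 79.5, 137 and 131 CPM in awake mice 1, 2, 13 and 17 and at 6.73, 55.3 and 0 CPM in isoflurane mice 3, 4 and 16. Every isoflurane mouse lay below every awake mouse, and the change was −3.03 ± 0.60 (log2 ± SE, adjusted p = 0.545 by edgeR, 0.00164 with the block). It rests on few molecules, 1, 13 and 0 UMIs in the isoflurane mice. The cyclic nucleotide phosphodiesterase Pde10a (chromosome 17, 8525187 to 8986648) was better covered, at 1677, 1552, 1628 and 1001 CPM awake and 579, 566 and 641 CPM under isoflurane. Its groups did not overlap either, and the change was −1.31 ± 0.31 (adjusted p = 0.768 by edgeR, 0.0033 with the block). With mice of at least 5 Sst nuclei and without mice 1 to 4 it was −1.44 (adjusted p = 0.153 by edgeR).

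The protein kinase Rock2 was at 492, 351, 465 and 152 CPM in awake mice 1, 2, 13 and 17 and at 80.8, 170 and 123 CPM in isoflurane mice 3, 4 and 16, where mouse 4 lay above mouse 17. Its change was −1.49 ± 0.36 (adjusted p = 0.768 by edgeR, 0.0033 with the block).

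Cort was at 179 and 98.2 CPM in awake mice 1 and 2 and at 26.9 and 17.0 CPM in isoflurane mice 3 and 4. In mice 13, 17 and 16 it was at 13.7, 0 and 0 CPM, so the change of −2.34 ± 0.83 rests on mice 1 to 4 (adjusted p = 0.999 by edgeR, 0.00547 with the block). The only gene called higher with the block was the long noncoding RNA Gm9866, at 45.7, 18.7, 27.4 and 0 CPM awake and 128, 102 and 150 CPM under isoflurane (2.23 ± 0.51, adjusted p = 0.768 by edgeR, 0.00659 with the block). Without mouse 2 its estimate was 4.32. Among the other genes called lower with the block were Rnf144b, 1700016P03Rik, Dlx6os1, Thrb, Tent5a, Spred2, Ncam2, P4ha1, Plcxd3, Ets1, Rab27b and Pde4b, with estimates of these in the blocked fit from −1.24 (Pde4b) to −3.47 (1700016P03Rik). Over all tested genes every isoflurane mouse lay below every awake mouse in 225 (3.91%) and above in 176 (3.06%).

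**Figure D5:**
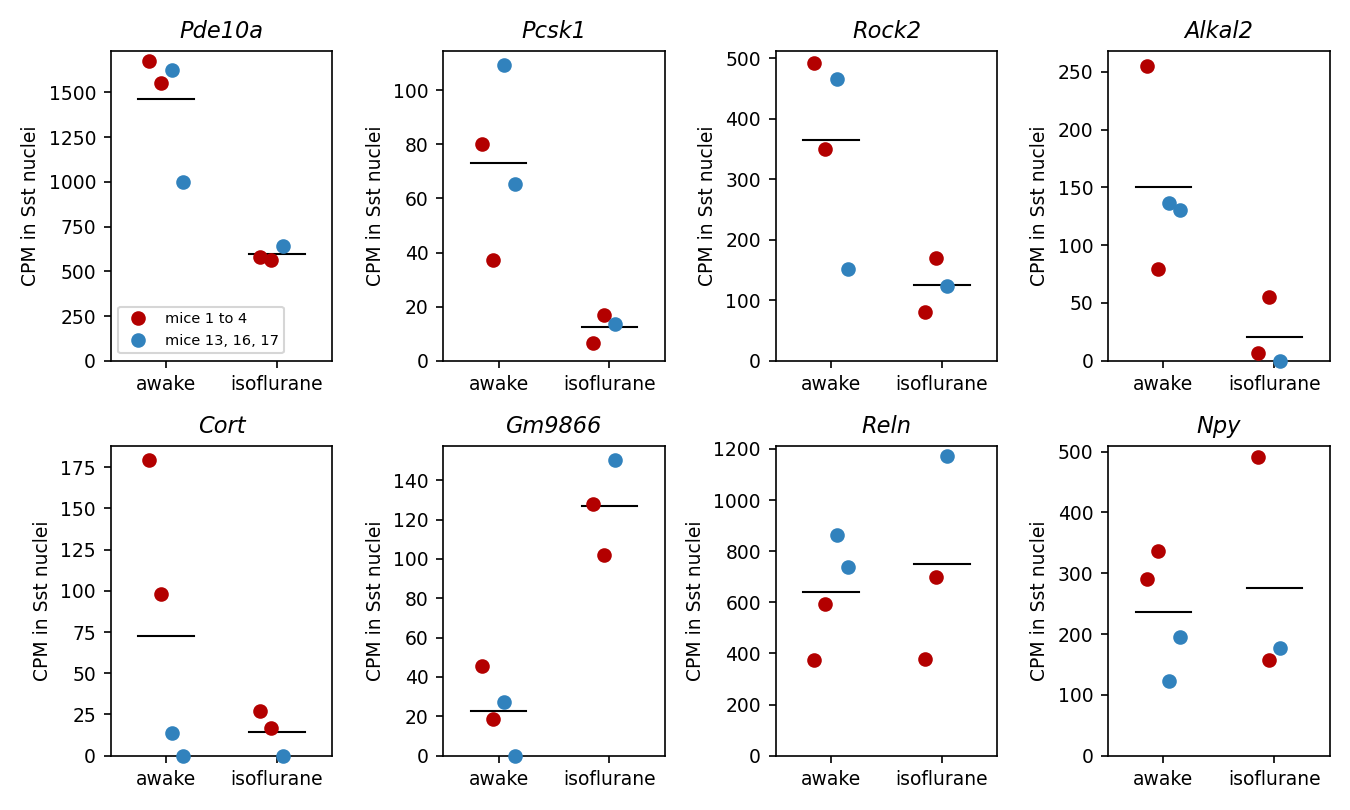
CPM in the Sst nuclei of each of the 7 mice, awake or under isoflurane, for 8 genes, with mice 1 to 4 in red, mice 13, 16 and 17 in blue and the mean of each state as a black line. Pde10a, Pcsk1 and Alkal2 are lower in all 3 isoflurane mice than in all 4 awake mice and Gm9866 is higher, whereas Reln and Npy overlap and Cort is above 20 CPM only in mice 1 to 3.

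The genes with the smallest unadjusted p beyond these were, in the unblocked fit and on the lower side, 1700016P03Rik (−3.73 ± 0.88) and the poly(A) polymerase Tent5a (−3.03 ± 0.77). On the higher side they were the acetyltransferase subunit Naa35 (1.25 ± 0.40, but −0.18 with mice of at least 5 nuclei and without mice 1 to 4), Slain1 (2.49 ± 0.80), the potassium channel Kcnt2 (1.06 ± 0.34) and the deubiquitinase Usp3 (1.39 ± 0.47). None of them passed the adjusted threshold in the unblocked fit with the filter on low counts.

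Genes of neuronal activity could hardly be measured in so few nuclei. None of the 20 immediate early transcription factors had enough UMIs to be tested. Their UMIs together came to 66, 41, 14 and 13 in the Sst nuclei of awake mice 1, 2, 13 and 17, which is 221, 170, 163 and 271 CPM of all genes. In isoflurane mice 3, 4 and 16 they came to 27, 40 and 4, or 161, 153 and 48.4 CPM. All 3 isoflurane mice were below these 4 awake mice, but in mice with 8 Sst nuclei isoflurane mouse 18 was at 174 CPM and awake mouse 14 at 133 CPM, so the states overlapped. In the nuclei selected without the Sst condition isoflurane mouse 3 was at 204 CPM and awake mouse 2 at 137 CPM. Nr4a1, an orphan nuclear receptor induced by calcium, was found in 38 of the 281 nuclei, Fos in 8 and Npas4 in 5. Of 26 effector genes 7 were tested, 5 of them negative with a median of −0.86 against 0.00 over all genes, and 0 passed. The prohormone convertase Pcsk1 had the smallest p among them, at 80.0, 37.4, 109 and 65.3 CPM awake and 6.73, 17.0 and 13.6 CPM under isoflurane (−2.29 ± 0.73, adjusted p = 0.999 by edgeR).

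Of the GABA-A receptor subunits, 10 were tested under isoflurane and 0 passed, with 8 negative and a median of −0.30. Gabra2 (−0.64 ± 0.38) had the smallest p, and Gabra3 differed by 0.29 ± 0.36. Of 17 peptide and subtype genes 0 passed, with 8 positive and 9 negative. Among them Reln differed by 0.21 ± 0.40, Npy by −0.10 ± 0.39, Crhbp by 0.00 ± 0.48, Elfn1 by −0.22 ± 0.37 and nociceptin, Pnoc, by −1.51 ± 0.65. Of 20 glutamate receptor genes and 20 potassium, HCN and K2P channel genes 0 passed, and Grm3 (1.27 ± 0.45) had the smallest p among the former. Of 4 adrenergic and cholinergic receptors Chrm2, a muscarinic autoreceptor, differed most (−1.88 ± 0.52).

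Whether Sst nuclei responded to isoflurane differently from the other GABAergic nuclei was tested with both sums of a mouse in 1 model and the mouse as a block, over the 19 mice with at least 1 Sst nucleus. No gene of 7353 passed (0%), with 304 at an unadjusted p under 0.05. DESeq2 was not run on this comparison. Of the subtype genes Reln had the smallest p, with a difference in response of 1.42 ± 0.37 (adjusted p = 0.282 by edgeR), and Nos1 (−2.26 ± 0.75) and Unc13c (−1.42 ± 0.48) differed in the opposite direction without passing. In the Sst nuclei of awake mice 1, 2, 13 and 17 Reln was at 329, 527, 732 and 709 CPM of all genes, and in isoflurane mice 3, 4 and 16 at 333, 628 and 1042 CPM. In the other GABAergic nuclei it was at 491, 353, 443 and 193 CPM awake and at 188, 135 and 239 CPM under isoflurane. Within the Sst nuclei the states overlapped, and in the others they overlapped only through mouse 17. Ankfn1 (2.09 ± 0.54), the guanine nucleotide exchange factor Vav3 (1.32 ± 0.38), the plexin Plxna1 (−3.61 ± 0.94), the serotonin receptor Htr2c (−2.81 ± 0.76) and Chrm2 (−1.46 ± 0.42) had similarly small p, and none passed. Without mice 1 to 4 the count was 3 genes (Slit2, Ncam2 and Htr2c). On leaving out 1 mouse Htr2c ran from −4.04 (without mouse 3) to −1.22 (without mouse 29) and Chrm2 from −2.26 (without mouse 4) to −0.97 (without mouse 16).

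Between mice labelled fAD and WT 0 of 5756 genes passed in the Sst nuclei (0%), with 57 at an unadjusted p under 0.05, and DESeq2 called 0 with 11. The smallest p was that of Prnp, at 1.80 ± 0.51 (adjusted p = 0.999 by edgeR). Prnp alone was called when mice 1 to 4 formed a block (adjusted p = 0.0434), and likewise with no filter on low counts, and without mouse 3 the count was 17 genes, among them Prnp and 7 mitochondrial genes. Of the interaction of genotype and isoflurane 0 of 5756 genes passed (0%), with 65 at an unadjusted p under 0.05, and 0 and 24 by DESeq2. Ttr was called with either block, Adarb2 also with runs of mouse numbers as the block, and without mouse 3 the count was 26. The interaction rests on mouse 4 as the only fAD-GA mouse, which is assumed to vary like the other groups.

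The nuclei selected without the Sst condition, 50 to 192 per mouse in all 20 mice, gave more power but contain the 281 Sst nuclei among 2458 and are mostly other interneurons. In mice 1 to 4 the Sst nuclei were 25.2% to 36.7% of this selection. Its fit thus shares molecules with that of the Sst nuclei, and no fit without the Sst nuclei was run. Between isoflurane and awake 97 of 9842 genes passed (0.986%), 48 higher and 49 lower. The count was 38 without mice 1 to 4, 263 and 264 with the 2 blocks, and 35 (without mouse 10) to 128 (without mouse 11) on leaving out 1 mouse. Genes named above for the Sst nuclei were among them: Spred2, an inhibitor of Ras-ERK signalling (−1.20 ± 0.16, adjusted p = 0.000811 by edgeR), Rab27b (−0.94 ± 0.14), Rock2 (−0.85 ± 0.14), 1700016P03Rik (−2.36 ± 0.37), Pde10a (−0.84 ± 0.16), Alkal2 (−1.71 ± 0.39) and Gm9866 (1.34 ± 0.25). Without mice 1 to 4 Spred2, Rab27b, Rock2, 1700016P03Rik and Gm9866 kept an adjusted p under 0.05 in this wider selection. Of the 7 immediate early transcription factors tested there 2 were called lower, and 3 estimates were positive and 4 negative, with a median of −0.07. Nr4a3 (−3.91 ± 0.67) and Nr4a1 (−1.79 ± 0.33), immediate early genes that could not be tested in the Sst nuclei, fell. So did the ERK target Etv5 (−2.005 ± 0.345) and Pcsk1 (−1.62 ± 0.37), while Maf (0.72 ± 0.13) rose. Hcrtr2, the orexin receptor called lower here (−1.49 ± 0.20), was at 1.81 CPM in the Sst nuclei and so is a gene of the other interneurons of this selection.

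The Sst nuclei of the 4 ketamine mice, 14 in all, were too few for a test. Their summed immediate early UMIs were 10 and 1 in mice 25 and 26 and 0 and 1 in mice 27 and 28. In the wider selection 63 of 9842 genes passed between ketamine and awake (0.64%), 24 higher and 39 lower, and 12 between ketamine and isoflurane (0.122%). With runs of mouse numbers as a block, in which mouse 29 is the only awake mouse beside the ketamine mice, both comparisons gave 0 genes, so none of the calls named here was kept. Both comparisons with awake share the awake mice. Alkal2 (−2.61 ± 0.59, adjusted p = 0.0422 by edgeR) and Spred2 (−1.17 ± 0.20, adjusted p = 0.00881) were lower also under ketamine, whereas Pde10a (−0.48 ± 0.19, adjusted p = 0.218) did not pass. The cold-induced RNA-binding protein Rbm3 was lower under ketamine against awake (−2.84 ± 0.41) and against isoflurane (−2.68 ± 0.42), and the former was −4.56 without mouse 28. Without mouse 27 the count against awake was 1 gene, Ptpn9, and against isoflurane it was 0.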

How the data were processed

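Nuclei were isolated from snap-frozen hippocampus and single-nucleus libraries were made with the 10x 3′ kit. The authors' deposited UMI counts (32285 genes) were made with Cell Ranger 5.0.0 on mm10, per the labels and file headers. The methods also name removal of ambient RNA, and the files hold whole counts whose headers name Cell Ranger only. Counts were used as deposited. The 20 libraries held 9.24e+06 to 2.54e+07 UMIs, and each is 1 mouse, so p-values measure the spread between mice. In the Sst fits at 10 nuclei per mouse, mouse 4 was the only fAD-GA mouse, so that group added nothing to this spread.

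Nuclei were selected as described in the report, and the members, gene lists and tests were chosen with earlier results of these data known. Counts were summed per mouse with at least 10 selected nuclei and tested with edgeR 4.0.16 (quasi-likelihood, TMM, default filter on low counts, group means, Benjamini-Hochberg, threshold 0.05). DESeq2 1.42.0, RLE factors, no filter, 2 blocks (mice 1 to 4, and runs of mouse numbers), equal nuclei per mouse, no marked doublets and leaving out each mouse were alternatives. The comparison without the Sst condition was added after the data were seen. It was fitted over all mice. The response of Sst against other GABAergic nuclei used 19 mice, since mouse 11 had no Sst nucleus. Shares were compared with exact permutation tests, also after thinning to 2000 UMIs. Profiles used log2(CPM + 1) and genes of at least 20 CPM in the Sst nuclei, and a filter on the mean of both classes was added after the data were seen. Doublets were marked with Scrublet (scanpy 1.11.5) and kept. Named genes were those of the selection, of the lists of activity genes, GABA-A subunits and subtype genes, the 20 largest profile differences on the higher side, and those with the smallest p (10 per direction where called, otherwise 5), and of other lists those with the smallest p. Genes beyond these were chosen after their values were seen. Scripts were tested on simulated data. A few named genes are not reported here.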

Additional observations from a re-analysis of the deposited data

Results flagged for a closer look

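Only WT-Awake (6 mice) and fAD-GA (4 mice) were large enough to be examined. Over 12 combinations of a measure and one of these groups, 5 held a value that stood apart from the rest, where chance gives about 1 in 20. All came from mice 1 and 4 and from related measures. In WT-Awake, mouse 1 had Sst at 611 CPM in the nuclei selected without the Sst condition, and the other 5 mice had 23.4 to 116 CPM. Mouse 1 also had an Sst UMI in 17.5% of its excitatory nuclei (others 0.483% to 2.85%) and 1.05% mitochondrial UMIs (others 0.0363% to 0.202%). In fAD-GA, mouse 4 had an Sst UMI in 23.98% of its excitatory nuclei (others 0.407% to 1.00%) and 0.939% mitochondrial UMIs (others 0.0437% to 0.0916%). Mice 2 and 3 belong to groups of 3, which were not examined in this way. The part of these differences in the results was not tested.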

How the results depend on the processing

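In the Sst nuclei the count of genes between isoflurane and awake was 0, and it became 4 with no filter (1700016P03Rik, Alkal2, mt-Co1 and mt-Atp6), 16 with runs of mouse numbers as a block, 18 with mice 1 to 4 as a block and 1 (Ncam2) with mice of at least 5 nuclei and without mice 1 to 4; leaving out 1 mouse gave 0 to 9, the highest without mouse 16. Between fAD and WT it became 1 (Prnp) with no filter and with the mice 1 to 4 block, and 0 to 17 on leaving out 1 mouse, the highest without mouse 3. For the interaction it became 1 (Ttr) with no filter, 2 (Adarb2 and Ttr) with runs as a block, 1 (Ttr) with the mice 1 to 4 block and 0 to 26 on leaving out 1 mouse, the highest without mouse 3. The comparison with other GABAergic nuclei gave 3 genes without mice 1 to 4 (Slit2, Ncam2 and Htr2c) and 0 to 2 on leaving out 1 mouse. Without the Sst condition, isoflurane gave 149 genes by DESeq2, 264 with no filter, 264 with runs as a block, 263 with the mice 1 to 4 block, 38 without mice 1 to 4 and 35 (without mouse 10) to 128 (without mouse 11) on leaving out 1 mouse. Ketamine against awake gave 123, 408, 0 and 194 under the first 4 of these and 1 (without mouse 27) to 93 (without mouse 29), and ketamine against isoflurane gave 46, 373, 0 and 29, and 0 (without mouse 27) to 29 (without mouse 29). There fAD against WT gave 7 with no filter and 1 (Cadps2) with runs as a block, and the interaction 31 and 2 (Gm27008 and Nrgn), with 0 to 0 on leaving out 1 mouse. The Sst level changed sign to 0.68 without mice 1 to 4, 0.0064 with RLE factors, 0.10 over all GABAergic nuclei and 0.20 with the mice 1 to 4 block, and ran from −0.86 to 1.21 on leaving out 1 mouse. The share of Sst nuclei changed sign to −0.00928 points over all nuclei, −0.00116 without marked doublets and −0.482 without mice 1 to 4, and ran from −2.10 to 1.77. Naa35 changed sign to −0.18 with mice of at least 5 nuclei and without mice 1 to 4, and Maml2 to 1.44 against the Pvalb-selected nuclei. Tent5a reached −4.75 (without mouse 3). The causes were not tested.

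Ketamine contrasts in the Sst nuclei were not run, since no ketamine mouse had 10 of them. Fits of the Sst nuclei at 10 per mouse without mice 1 to 4, or with 4 or more Sst UMIs, were not run either, since too few mice were left. The isoflurane and interaction contrasts were not fitted without mouse 4, since both include the fAD-GA group, of which it is the only tested mouse. No paired analysis was possible because mouse numbers are not shared between groups. The methods name processing batches of 4, each with awake and isoflurane mice of both genotypes, without listing their members. The labels give no batch. By the labels mice 1 to 4 and mice 14 to 17 each hold 1 mouse of each of these groups, and mice 10 to 13 do not. Both blocks above were set by mouse number alone and may not match those batches. One was mice 1 to 4 against the others, and the runs were 1 to 4, 10 to 13, 14 to 17, 18 to 20 and 25 to 29. The 7 mice leave 3 residual degrees of freedom, and most genes have few UMIs per mouse.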
